A study of Mus musculus with 6 samples.

Results

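Lars2 and Lztfl1 lie near the distal end of mouse chromosome 9, together with Tmem42, Zdhhc3, Exosc7, Limd1, Sacm1l, Fyco1 and 2010315B03Rik. These 9 genes were chosen by place and because some of them were lower in retinas of embryos that lack Onecut1 (OC1-KO) than in wild type (WT) retinas, so their differences between OC1-KO and WT are described here and not tested. Every probe set that the platform annotation assigns to 1 of these genes alone was taken, 20 of the 45037 probe sets that are not controls and 9 of the 18193 genes. A probe set was counted as measured where its mean log2 signal was over 7 in WT or in OC1-KO, the filter of the study's methods. This held for 20888 probe sets of 10529 genes, and for 16 of the 20 member probe sets, with at least 1 for each of the 9 genes.

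The microarrays addressed which transcripts differ in the developing retina when Onecut1 is missing. Retinas were isolated from 3 WT and 3 OC1-KO embryos, whose stage is E14 by the labels and E14.5 by the series design, and each embryo was measured on 1 Affymetrix Mouse Genome 430 2.0 array. The embryos were littermates on a mixed background, and each genotype's embryos are numbered 1 to 3. The OC1-KO embryos carry a null allele in all cells of the body, in a line made from R1 embryonic stem cells and animals of a "Swiss" strain and crossed for some generations to C57Bl/6, and no treatment was given to either genotype. Onecut1 is on chromosome 9 too, with 975 annotated genes between it and Tmem42, the nearest member. Which strain's alleles the embryos carried at the member genes was not measured, so the loss of Onecut1 and a strain's alleles inherited with the targeted allele cannot be told apart in this comparison.

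The members belong to separate housekeeping, trafficking and signalling processes. Lars2 charges the leucine tRNA of mitochondria and Exosc7 is a ring subunit of the RNA exosome, which trims and degrades RNA in the nucleus and cytoplasm. Lztfl1 binds the BBSome, the coat complex that moves membrane proteins out of cilia, and its human counterpart is a Bardet-Biedl syndrome gene, a disorder in which photoreceptors degenerate. Fyco1 links autophagosomes to kinesin for transport along microtubules, Sacm1l removes phosphate from phosphatidylinositol 4-phosphate in the endoplasmic reticulum and Golgi, and Zdhhc3 is a Golgi enzyme that attaches palmitate to proteins. Limd1 is a LIM domain scaffold of the Ajuba family that binds Hippo pathway kinases. Tmem42 is annotated as a membrane protein gene and 2010315B03Rik as protein coding.

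The 250 bases upstream of the annotated start are shown for the genes whose signals differed most between the genotypes and for Fyco1, whose window holds a tandem repeat. They were read from RefSeq windows on GRCm38.p6, the C57BL/6J reference, 5′ to 3′ along each gene's strand. Of the 9 members, all but Limd1 matched a window, 8 genes with 9 windows since Fyco1 has 2. Capitals mark, in Lztfl1, an X-box and, in Fyco1, the exact copies of a 16-base unit, and the Lars2 and 2010315B03Rik windows hold neither.
Lars2, chr9:123366677-123366926, plus strand: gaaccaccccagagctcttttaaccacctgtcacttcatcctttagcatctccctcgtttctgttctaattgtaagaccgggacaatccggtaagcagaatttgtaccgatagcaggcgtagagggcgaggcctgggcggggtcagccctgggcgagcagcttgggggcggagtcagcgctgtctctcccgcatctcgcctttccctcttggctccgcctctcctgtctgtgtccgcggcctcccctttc
Lztfl1, chr9:123717626-123717875, minus strand: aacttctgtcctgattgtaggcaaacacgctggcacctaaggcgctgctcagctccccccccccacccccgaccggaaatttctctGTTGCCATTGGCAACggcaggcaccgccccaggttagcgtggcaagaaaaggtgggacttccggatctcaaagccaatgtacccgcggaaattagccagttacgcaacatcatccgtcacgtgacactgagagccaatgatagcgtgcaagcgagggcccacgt
Fyco1, chr9:123851900-123852149, minus strand: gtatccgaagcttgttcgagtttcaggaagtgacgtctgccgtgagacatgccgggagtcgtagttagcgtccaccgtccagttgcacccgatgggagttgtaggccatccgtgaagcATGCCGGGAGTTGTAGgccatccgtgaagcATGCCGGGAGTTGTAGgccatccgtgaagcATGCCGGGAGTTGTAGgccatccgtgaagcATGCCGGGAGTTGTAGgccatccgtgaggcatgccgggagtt
2010315B03Rik, chr9:124312695-124312944, minus strand: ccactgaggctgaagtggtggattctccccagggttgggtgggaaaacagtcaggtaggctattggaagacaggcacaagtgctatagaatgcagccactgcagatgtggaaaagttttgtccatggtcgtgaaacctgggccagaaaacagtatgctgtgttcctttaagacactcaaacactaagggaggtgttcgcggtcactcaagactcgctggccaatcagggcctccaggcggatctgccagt
The X-box is the site of RFX factors, which switch on many ciliary genes, and was searched on both strands as GTTGCCNNNGGCAAC after the letters had been read. It occurs in 9 of the 32851 windows of this length in the reference table (0.0274%), and in 1 of the 9 windows of the members, that of Lztfl1. The shorter motif GGCAAC, which each X-box contains on both strands, is in 10.4% of all windows. In the Fyco1 window shown the 16-base unit is present in 4 exact copies spaced 30 bases apart, and 1 of the 32851 windows has 4 or more copies of it. The other Fyco1 window opens with a further exact copy, which the end of the window shown cuts off. The core of the site that Onecut factors bind, ATTGAT on either strand, is in 6.72% of all windows and in 0 of the 9 member windows, which says only that these letters are not within 250 bases of the annotated starts. The GC content of the member windows ran from 52.4% in 2010315B03Rik, the median of all windows, to 76.0% in Exosc7, whose window overlaps the one of Zdhhc3 on the other strand.

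Several facts of the whole series bear on the members. Retina markers were present on all arrays, with 10 of 12 on the array and all 10 over the filter. In the embryos numbered 3, lens markers (4 of 12 over the filter) had a summed signal of 21909 in WT and 11402 in OC1-KO, against 321 to 510 in the other 4 embryos. Of the 8 lens markers whose group means were below the filter, Cryaa, Cryba4 and Lim2 were highest in WT 3 and OC1-KO 3 (Cryaa at 11.59 and 10.49), while Crybb2, Crygs, Mip, Bfsp1 and Bfsp2 were under 7 in all 6 embryos. The red blood cell list (1 of 6 over the filter) had summed signals of 16580 in WT 3 and 23986 in OC1-KO 3, against 67.4 to 739 in the others. Summed pigment epithelium signal was 2215 in OC1-KO 3, 893 in WT 3 and 355 to 664 in the other 4. The periocular mesenchyme list (1 of 7 over the filter) summed to 2851 in WT 3 and 2405 in OC1-KO 3, against 440 to 681 in the other 4. The 3' signal over the 5' signal of the control genes, a sign of RNA quality, was on the log2 scale also lowest in these 2 embryos, at 0.66 and 0.45 for Actb against 0.76 to 1.11, and at -0.42 and -0.49 for Gapdh against -0.27 to -0.24. Xist, the RNA that coats the inactive X chromosome of females, was at 13.81 to 14.13 in WT 2, OC1-KO 2 and OC1-KO 3 and at 5.39 to 5.79 in the other 3 embryos, so the sexes were split unevenly between the genotypes. Onecut1 itself gave 9.25, 8.76 and 9.005 in WT 1 to 3 and 9.02, 8.31 and 9.67 in OC1-KO 1 to 3 on its brighter probe set. No source used here places its probe sets relative to the deletion, so these signals check nothing. In whole retinas, fewer cells of a type and less RNA per cell cannot be told apart.

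Lars2, the mitochondrial leucyl-tRNA synthetase, was lower in every OC1-KO embryo than in every WT embryo. Probe set 1435682_at gave log2 signals of 10.15, 9.82 and 9.52 in WT 1 to 3 and of 9.28, 8.63 and 8.18 in OC1-KO 1 to 3. In each genotype embryo 1 was highest and embryo 3 lowest, and the groups did not overlap. WT averaged 9.83 ± 0.31 and OC1-KO 8.70 ± 0.55 (SD, n = 3 each), a log2 difference of -1.13 or 2.19-fold lower signal, the 20th lowest of the 20888 differences. The difference was -0.87, -1.19 and -1.34 in the pairs of embryos numbered 1, 2 and 3, and ran from -1.42 without OC1-KO 1 to -0.88 without OC1-KO 3. The other Lars2 probe sets were below the filter: 1439225_at lay between 1.94 and 6.23 with OC1-KO 3 lowest, 1443672_at lay between 4.17 and 5.54, and the groups overlapped on both. Exosc7, the exosome subunit that lies beside Lars2 in the gene order of the members, differed little. Probe set 1448365_at gave 11.10, 10.76 and 10.99 in WT 1 to 3 and 11.14, 10.82 and 11.21 in OC1-KO 1 to 3, overlapping groups with a difference of 0.11.

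Lztfl1, the BBSome regulator, had 5 probe sets, and they did not tell the same story. The dimmer set 1435514_at had the largest difference of all member probe sets, at 8.08, 8.80 and 7.25 in WT 1 to 3 and 7.01, 4.82 and 3.87 in OC1-KO 1 to 3. OC1-KO 2 and OC1-KO 3 were far below every WT embryo, while OC1-KO 1 lay just under WT 3, and the groups did not overlap. The mean difference was -2.81 (WT 8.05 ± 0.78, OC1-KO 5.23 ± 1.61, SD, n = 3 each), the 2nd lowest of all 20888, with pairs at -1.08, -3.98 and -3.38. It ran from -3.70 without OC1-KO 1 to -2.13 without OC1-KO 3. Probe set 1428974_s_at, whose suffix marks probes that match several transcripts, gave 8.29, 8.29 and 7.64 in WT 1 to 3 and 7.98, 6.21 and 5.94 in OC1-KO 1 to 3. Here OC1-KO 1 was above WT 3, so the groups overlapped, and OC1-KO 2 and 3 were again the lowest. Its difference was -1.36, and ran from -1.99 without OC1-KO 1 to -0.98 without OC1-KO 3.

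The brightest Lztfl1 probe set showed no such loss. 1417170_at gave 10.74, 10.54 and 10.29 in WT 1 to 3 and 10.42, 10.74 and 10.68 in OC1-KO 1 to 3, with overlapping groups and a difference of 0.09. OC1-KO 2 and 3, the lowest embryos on 1435514_at and 1428974_s_at, were the highest OC1-KO embryos on 1417170_at. Probe set 1460200_s_at gave 8.995, 8.46 and 7.79 in WT 1 to 3 and 9.17, 8.19 and 7.46 in OC1-KO 1 to 3. On it embryo 1 was highest and embryo 3 lowest in both genotypes, with a difference of -0.14 that was 0.27 without OC1-KO 3 and -0.59 without OC1-KO 1. The last set, 1431323_at, was below the filter and scattered from 0.69 in WT 3 to 6.03 in WT 2. Which part of the Lztfl1 transcript each probe set reads is stated in no source used here, and the probe sets give no single direction for the gene.

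2010315B03Rik, the most distal member, had 1 probe set. 1438238_at gave 8.72, 9.09 and 7.59 in WT 1 to 3 and 7.93, 6.60 and 5.23 in OC1-KO 1 to 3. OC1-KO 2 and 3 were below all WT embryos, and OC1-KO 1 was above WT 3, so the groups overlapped. The means were 8.47 ± 0.78 and 6.59 ± 1.35 (SD, n = 3 each), a difference of -1.88 or 3.68-fold lower signal, the 4th lowest of all, with pairs at -0.79, -2.49 and -2.36. It was -2.55 without OC1-KO 1 and -1.20 without OC1-KO 3. With Lztfl1 1435514_at and 1428974_s_at it is 1 of 3 member probe sets that pass the filter through their WT mean alone, and these could pass only by being lower in OC1-KO.

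The members of lipid and vesicle transport differed less. Fyco1, the autophagosome adaptor, gave 8.09, 8.12 and 6.99 in WT 1 to 3 and 8.05, 7.11 and 6.39 in OC1-KO 1 to 3 on 1453424_at. OC1-KO 1 matched the upper WT embryos and the groups overlapped, with a difference of -0.55, which ran from -0.98 without OC1-KO 1 to -0.15 without OC1-KO 3. On the brighter Fyco1 set, 1427177_at, embryos 1 and 2 of both genotypes lay between 9.34 and 9.46, and WT 3 and OC1-KO 3 were lower at 8.98 and 8.58. Its difference was -0.10, and 0.17 without OC1-KO 3. Sacm1l, the phosphoinositide phosphatase, gave 10.50, 10.98 and 10.74 in WT 1 to 3 and 10.50, 10.79 and 10.71 in OC1-KO 1 to 3, almost the same values, with a difference of -0.07.

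Zdhhc3, the palmitoyltransferase, had 4 probe sets with differences between -0.11 and 0.08 and overlapping groups on each. The difference of 1423646_at ran from -0.39 without WT 1 to 0.24 without WT 3, and that of 1423647_a_at from -0.20 without WT 1 to 0.48 without WT 3, so neither kept 1 direction when an array was left out. 1423646_at gave 9.23, 9.64 and 10.48 in WT 1 to 3 and 9.43, 9.45 and 10.13 in OC1-KO 1 to 3. 1423647_a_at gave 7.90, 8.22 and 9.27 in WT 1 to 3 and 8.96, 7.83 and 8.84 in OC1-KO 1 to 3. On both, WT 3 was the highest of all 6 embryos, while on Fyco1 1453424_at and Lztfl1 1460200_s_at it was the lowest WT embryo. 1455368_at stayed between 7.90 and 8.24 in all 6 embryos, and 1438897_at was below the filter at 5.45 to 6.72.

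Limd1, the LIM domain scaffold, was slightly lower on 1 of its 2 probe sets. 1422730_at gave 10.03, 9.87 and 9.76 in WT 1 to 3 and 9.71, 9.54 and 9.61 in OC1-KO 1 to 3. The lowest WT embryo was 0.05 above the highest OC1-KO embryo, so the groups did not overlap, and the difference was -0.26 or 1.20-fold lower signal. On the brighter set, 1422731_at, all 6 embryos lay between 10.74 and 10.94, OC1-KO 3 was the highest, and the difference was -0.03. Tmem42, the most proximal member, gave 9.43, 8.83 and 9.35 in WT 1 to 3 and 9.54, 9.58 and 8.99 in OC1-KO 1 to 3. Its lowest value was in a WT embryo, the groups overlapped, and the difference of 0.17 was -0.02 without WT 2.

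**Figure D1:**
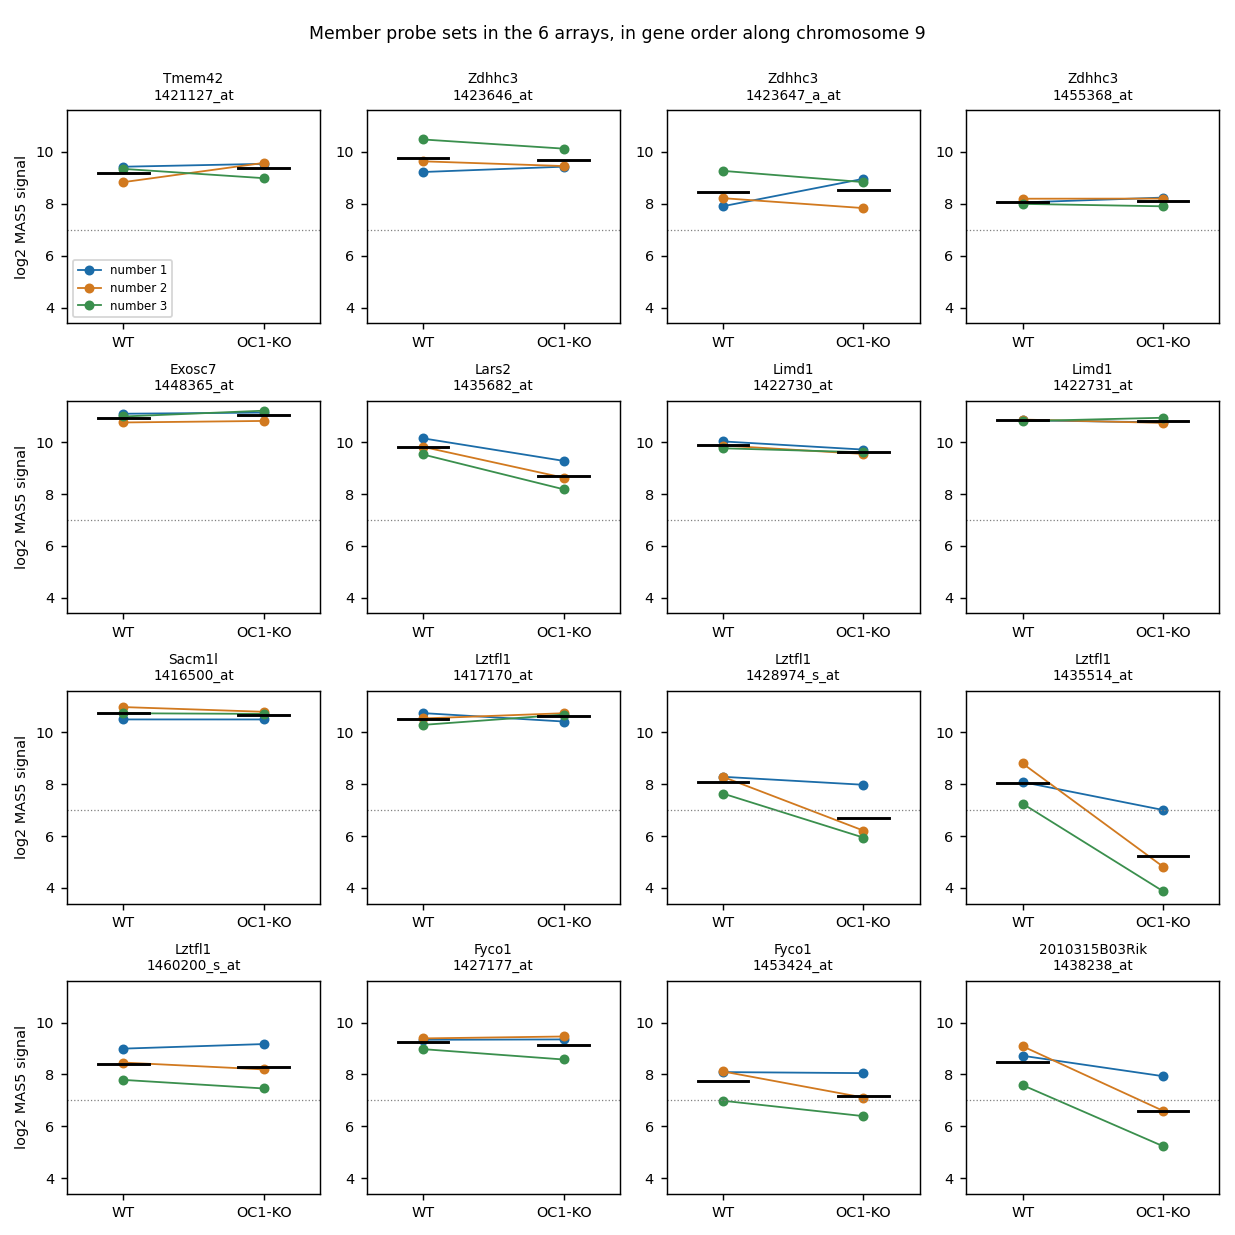
Log2 MAS5 signal of the 16 member probe sets over the filter, 1 panel each in gene order along chromosome 9. Points are single embryos, coloured lines join the WT and OC1-KO embryos that share a number, black bars are group means (n = 3) and the dotted line is the filter of 7. Lars2 1435682_at is lower in all OC1-KO embryos, while on Lztfl1 1428974_s_at and 1435514_at and on 2010315B03Rik the OC1-KO embryos numbered 2 and 3 lie well below the one numbered 1.

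Among the 16 member probe sets over the filter, 11 had a lower OC1-KO mean and 5 a higher one, and the median difference was -0.11 against -0.01 for all 20888. In 3 of them, Lars2 1435682_at, Lztfl1 1435514_at and Limd1 1422730_at, the OC1-KO embryos were lower without overlap, and in 0 they were higher without overlap. Over all probe sets 1.86% were lower and 1.7% higher in this way. The members' count was 2 with a filter on the mean over all 6 arrays. It was 6 without WT 3 and 5 without OC1-KO 1, as fewer arrays overlap less often. In 4 the mean was lower by 1 or more on the log2 scale, against 0.124% of all. In 7 the OC1-KO embryo was lower in 3 of 3 pairs, against 13.1% of all, and in 1, that of Exosc7, it was higher in 3 of 3, against 10.3%. The members were chosen on this contrast, so nothing is read from these shares. Of the 5 genes with more than 1 probe set, Lars2, Lztfl1 and Zdhhc3 each had at least 1 below the filter, and Lztfl1 and Limd1 each held a set without overlap beside a brighter set that differed by under 0.10 in size.

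**Figure D2:**
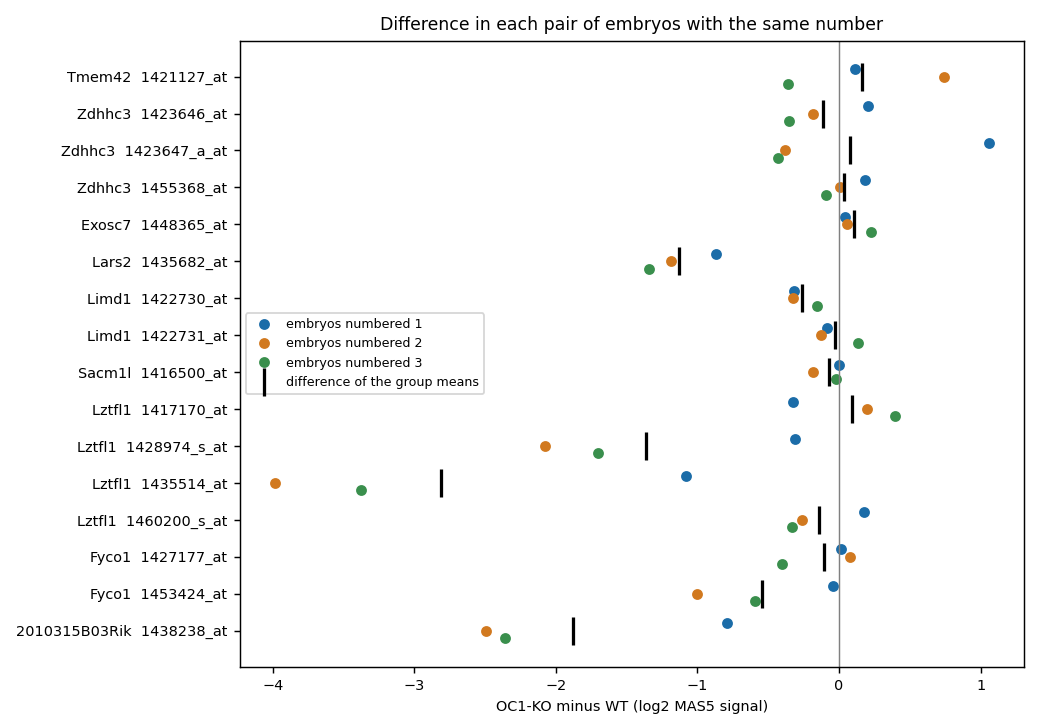
Difference in log2 MAS5 signal, OC1-KO minus WT, for the 16 member probe sets over the filter. Coloured points are the pairs of embryos with the same number and black bars the difference of the group means. The pair numbered 1 lies between -1.08 and -0.31 on the 4 probe sets that were lower by 1 or more.

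The 4 probe sets with a difference of -1 or below differed in size between the pairs but kept 1 direction. In the pair numbered 1 they were lower by between 0.31 and 1.08, and in the pairs numbered 2 and 3 each was lower by more than in pair 1. The OC1-KO embryos spread over 1 log2 unit or more on 7 of the 16 member probe sets, against 15.7% of all 20888, and the WT embryos on 6, against 11% of all. OC1-KO 1 was the highest OC1-KO embryo on 9 of the 16, against 34.1% of all. The counts of 7 and 9 include Lztfl1 1428974_s_at and 1435514_at and 2010315B03Rik, which pass the filter through WT alone. Lztfl1 1435514_at and 2010315B03Rik are in the WT count of 6 too, so nothing is read from these shares. OC1-KO 1 differed from OC1-KO 2 and 3 also in Xist (5.53 against 14.01 and 14.13). WT 2, with Xist at 13.81, had the highest WT value on Lztfl1 1435514_at and 2010315B03Rik. The part of sex in this spread was not tested.

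Embryo number was not used to choose the members, and its term is independent of genotype in this design, so it was tested. Arrays with the same number deviated together, with correlations of 0.51 to 0.67 between their deviations from the group means over all probe sets. That the numbers pair the arrays was taken from these values and not from the labels. The test is thus not independent of that choice. The 3 member probe sets that pass the filter through WT alone were left out of the count. In limma's moderated F test with genotype in the fit, 1 of the other 13 passed an adjusted p of 0.05 and 5 passed an unadjusted p of 0.05, against 5.32% and 31.9% of all 20888. The count behind the first share, 1111, was 1544 without WT 1, 0 without OC1-KO 1 and 3 to 9 when any 1 of the other 4 arrays was left out. The 1 that passed was Lztfl1 1460200_s_at (adjusted p = 0.0415), where the mean of the embryos numbered 3 was 1.08 below the mean of the others. With 1 array left out its adjusted p ran from 0.0354 without WT 1 to 0.171 without OC1-KO 3, and it was over 0.05 when any 1 of the other 5 was left out. It was 0.00809 with an intensity trend and 0.352 with no filter on signal, the lowest and highest over all alternatives.

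Each adjusted p below is of limma's F test over all 3 embryo numbers, not of number 3 against the others. The embryos numbered 3 differed from the mean of the others by 0.87 on Zdhhc3 1423646_at (adjusted p = 0.0636 by limma). They differed by -1.15 on Fyco1 1453424_at (adjusted p = 0.0638 by limma). On Lars2 1435682_at they differed by -0.61 (adjusted p = 0.0742 by limma). These 3 missed the threshold, but with an intensity trend limma gave adjusted p of 0.00993, 0.0323 and 0.0205. Zdhhc3 1423646_at also passed with median centring (adjusted p = 0.0442 by limma) and Fyco1 1453424_at without WT 1 (adjusted p = 0.0383 by limma). On 2010315B03Rik, which passes the filter through WT alone, the difference was -1.67. The adjusted p was highest for Limd1 1422731_at (0.889), whose 6 values lay within 0.20 of each other. In 8 of the 16 both WT 3 and OC1-KO 3 were the lowest of their genotype, against 27.9% of all probe sets. These 8 include Lztfl1 1428974_s_at and 1435514_at and 2010315B03Rik, which pass the filter through WT alone, so nothing is read from this share. The other cell types' markers and the 3' to 5' ratios of these embryos are given above, and their part in the embryo differences was not tested. Each p sets the differences between embryo numbers against the variation left after genotype and number. It rests on these 6 embryos alone.

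The probe sets that differed most moved together across the 6 arrays. Lars2 1435682_at, Lztfl1 1428974_s_at and 1435514_at and 2010315B03Rik correlated with each other at a Pearson r of 0.949 to 0.979 over the 6 arrays, in all 6 pairs. In 9 of the 120 pairs of member probe sets r was 0.9 or more, and the other 3 of these were Lars2 with Limd1 1422730_at (0.918) and Fyco1 1453424_at with 2010315B03Rik (0.915) and with Lztfl1 1460200_s_at (0.916). The brightest Lztfl1 set, 1417170_at, had an r of -0.247 with Lars2. These are descriptions over 6 arrays that share a genotype difference, an embryo number and 1 scaling, and the first 4 were chosen for that genotype difference.

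**Figure D3:**
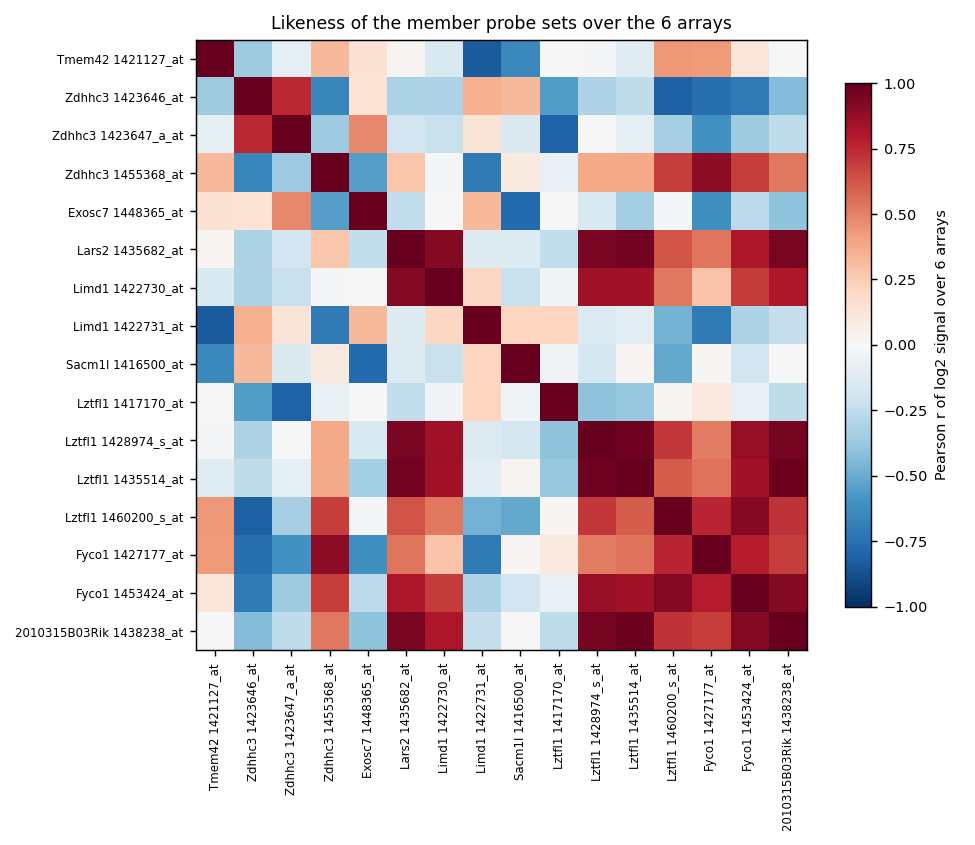
Pearson correlation of log2 MAS5 signal over the 6 arrays between the 16 member probe sets over the filter, in gene order along chromosome 9, on a colour scale from -1 (blue) to 1 (red). Lars2 1435682_at, Limd1 1422730_at, Lztfl1 1428974_s_at and 1435514_at, Fyco1 1453424_at and 2010315B03Rik form a red group, in which the values run from 0.70 to 0.98, while Lztfl1 1417170_at stands outside it.

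Some genes elsewhere in the genome had patterns as like Lars2 as the most alike members did. Of 10528 other genes, each by its most alike probe set, Plekhj1 (r = 0.984), Wdr38 (0.969), Dus1l (0.969), Pard6b (0.968) and 6430548M08Rik (0.968) came first, none of them on chromosome 9. Among the 18249 probe sets ranked against Lars2 1435682_at, Lztfl1 1435514_at was 7th, 2010315B03Rik 14th, Lztfl1 1428974_s_at 17th and Limd1 1422730_at 47th. These were lower in OC1-KO, as Lars2 was, and the members were chosen on that contrast, so nothing is read from their places. For 2010315B03Rik the first 5 were Inpp5e (0.986), Gpr137b (0.984), Srrm2 (0.983), Dus1l (0.982) and Lztfl1 1435514_at (0.979). For the brightest Lztfl1 set, 1417170_at, they were Cox7a2l (0.989), Plrg1 (0.986), Glipr2 (0.980), Taz (0.979) and Krtap10-4 (0.973), none on chromosome 9. For Lztfl1 1435514_at, added after its values were seen, Wdr38 came first (0.991) and 2010315B03Rik next (0.979).

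The low signals were not shared by all genes of the region. The annotation places 34 genes from Tmem42 to 2010315B03Rik, of which 25 are not members and 13 of those are on the array. Only Tmem158, a membrane protein gene between Exosc7 and Lars2, passed the filter, at 8.74, 9.45 and 9.69 in WT 1 to 3 and 8.81, 9.59 and 9.51 in OC1-KO 1 to 3. In each genotype the embryo numbered 1 was lowest, the groups overlapped, and the difference was 0.01. On the proximal side, 4 of 15 genes passed the filter with 6 probe sets, 2 lower and 4 higher by -0.13 to 0.24, and on the distal side 2 of 6 passed, at -0.19 (Ppp2r3d) and 0.11. The groups overlapped on all 9 of these probe sets of neighbours. With 1 array left out 4 of them did not overlap: Ppp2r3d was lower without WT 3 (-0.31), Tcaim was higher without OC1-KO 1 (0.44), and 2 sets of Zfp445 were higher without OC1-KO 3 (0.29 and 0.59).

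**Figure D4:**
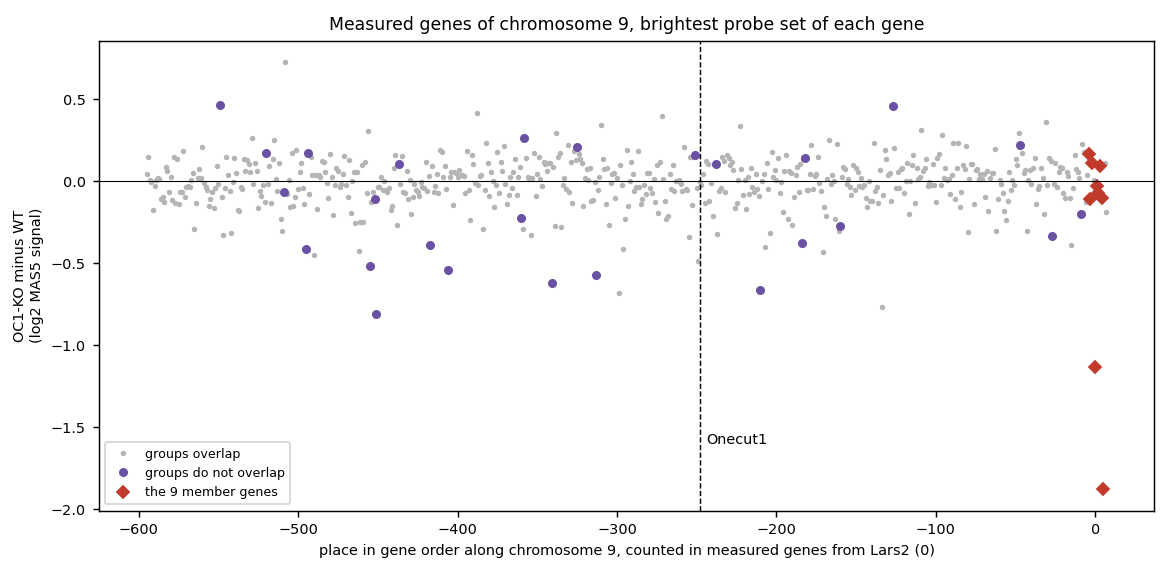
Difference in log2 MAS5 signal, OC1-KO minus WT, of the 603 measured genes of chromosome 9, each by its brightest probe set, against their place in gene order from Lars2. Red diamonds are the 9 member genes, purple points other genes whose groups did not overlap, grey points the rest and the dashed line Onecut1. Lars2 and 2010315B03Rik are the lowest of these genes, at -1.13 and -1.88, and the other 7 members lie near 0. The members were chosen on this contrast, so nothing is read from this order.

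Along the chromosome each gene was taken by its brightest probe set. 2010315B03Rik (-1.88) and Lars2 (-1.13) had the lowest differences of 603 measured genes, and Abcg4, far on the proximal side, came next at -0.81. The members were chosen on this contrast, and 2010315B03Rik passes the filter through WT alone, so nothing is read from this order. In all, 16 of the 603 genes (2.65%) were lower in OC1-KO without overlap, against 193 of 9909 (1.95%) on other chromosomes. Distal to Onecut1 it was 6 of 255 (2.35%), and from the start of the chromosome up to Onecut1 10 of 348 (2.87%). Among the 61 measured genes nearest the distal end, which include all 9 members, 3 were lower and 1 higher without overlap, and the median difference was 0.02. By this choice of probe set, Lztfl1 is described by 1417170_at and Limd1 by 1422731_at, so their lower, dimmer sets do not enter these counts.

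The functional relatives of the members were listed by function and not by their own values, though with earlier results of these data known. They were tested in the same fit. Most are on other chromosomes, but Yap1, Bbs9, Bbs4, Dis3l and Oxsr1 are on chromosome 9 too. In 8 lists of 99 genes, 92 were measured, 46 with a lower and 46 with a higher OC1-KO mean, around a median of 0.01. At an adjusted p of 0.05 limma called 0 of them, with and without a block on embryo number, and the methods' t-test called 0 as well. At an unadjusted p under 0.05 each of these called 1. Of all probe sets limma called 0.637% lower and 0.369% higher at that level, the blocked fit 2.81% and 1.57%, and the methods' t-test 0.747% and 0.766%.

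The other mitochondrial tRNA synthetases, which charge the remaining tRNAs beside Lars2, had 16 of 18 measured, 10 lower and 6 higher, with a median of -0.02. Vars2, the valyl enzyme, had the smallest p, at 8.12 ± 0.09 in OC1-KO against 7.43 ± 0.43 in WT (SD, n = 3 each), which differ by 0.69 (SE 0.23, adjusted p = 1.00 by limma). Gars, the brightest of the list, encodes the glycyl enzyme of both mitochondria and cytoplasm. It was at 0.17 and also higher in all OC1-KO embryos without passing the test. Lars, which charges leucine tRNA in the cytoplasm, was at 0.10, and at -0.01 without OC1-KO 1. Among the BBSome subunits and adaptors around Lztfl1, 13 of 14 were measured, 8 lower and 5 higher, with a median of -0.10. Mkks, a chaperonin-like protein of BBSome assembly, was at -0.22 with groups that did not overlap, and the brightest, Bbip1, at -0.10, with adjusted p of 1.00 by limma for both.

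Of the RNA exosome genes beside Exosc7, 13 of 14 were measured, 4 lower and 9 higher, from -0.20 to 0.22, with Exosc2 at 0.22 and C1d at -0.15. The LIM domain and Hippo partners of Limd1 had 10 of 11 measured, 7 lower and 3 higher, with Lpp at 0.20 and the transcriptional coactivator Yap1 at 0.09. All 11 genes listed as phosphoinositide partners of Sacm1l were measured, 3 lower and 8 higher, with the kinase Pi4k2a at -0.14 and the tether Vapa at 0.12. The list also holds Oxsr1, a kinase that is not a phosphoinositide gene and is among the higher ones. Of the autophagosome transport partners of Fyco1, 10 of 11 were measured, 4 lower and 6 higher, with Gabarapl1 at 0.23 and the kinesin light chain Klc1 at 0.03. The DHHC palmitoyltransferases related to Zdhhc3 had 18 of 19 measured, 10 lower and 8 higher, with Zdhhc2 at -0.26 and their partner Golga7 at 0.01. None of these named genes passed the test. Of those given with a difference, C1d, Pi4k2a, Zdhhc2 and Golga7 turned sign with 1 array left out.

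**Figure D5:**
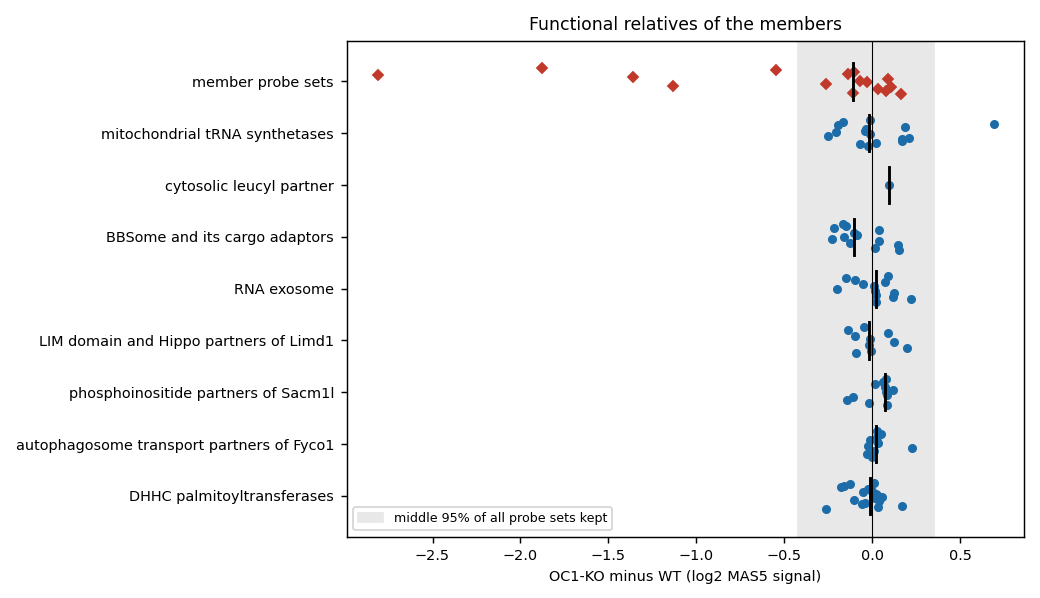
Difference in log2 MAS5 signal, OC1-KO minus WT, for the 16 member probe sets (red diamonds) and the measured genes of the 8 lists of functional relatives (blue points, brightest probe set of each gene). Black bars are medians and the grey band the middle 95% of all 20888 probe sets, from -0.42 to 0.35. Of the relatives only Vars2, at 0.69, lies outside the band, and 5 member probe sets lie below it. The members were chosen on this contrast, and 3 of the 5 pass the filter through WT alone, so nothing is read from this.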

How the data were processed

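The deposited values are MAS5 intensity, the linear signal of each probe set after the authors' background correction and summary, after which the 2% trimmed mean of every array is 500; no source used here gives the software version. Log2 was taken without further scaling. Median signals ran from 85.0 to 104, and 43.4% to 46.7% of probe sets per array were over a log2 signal of 7. The number of arrays limits the precision. Of 45101 probe sets, 64 controls were left out. Of the 34958 with 1 gene symbol, 34754 were matched to the current annotation by Entrez ID.

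The fits used limma 3.58.1 in R 4.3.3 (lmFit, eBayes without trend, Benjamini-Hochberg over the 20888 probe sets kept), on all 6 arrays, with genotype alone or with genotype and embryo number, and were tested on simulated data. Tables and plots used Python 3.11.15, pandas 2.3.3 and matplotlib 3.10.9. Arrays with the same embryo number correlated at 0.51 to 0.67 in their deviations from the group means and others at -0.44 to -0.04, so the numbers were taken to pair the arrays, from the values and not from the labels; no array was a duplicate. The members, lists and tests were chosen with earlier results of these data known. Named genes are all members, the smallest p and the brightest gene of each list, every measured neighbour between the members, and the 5 genes most alike to Lars2, Lztfl1 and 2010315B03Rik. Ppp2r3d, Tcaim, Zfp445 and Abcg4 were named after their values were seen. Bbs4, Bbs9, Dis3l and Oxsr1 were named for their place or function. The alternatives were quantile normalization, median centring, no filter, a filter over all 6 arrays, log2(signal + 16), an intensity trend, a replicate block, the methods' t-test, the embryos numbered 1 and 2 alone and each array left out.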

Additional observations from a re-analysis of the deposited data

How the results depend on the processing

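The count of probe sets that differ between OC1-KO and WT at an adjusted p under 0.05 was 0 by limma and in all 15 alternatives, the replicate block among them; unadjusted, 133 were lower and 77 higher by limma, 586 and 327 when blocked by embryo number, and 156 and 160 by the methods' t-test. The count of related genes called was 0 in all 14 of its alternatives. The block changed no other call.

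The number of member probe sets lower without overlap was 3, and ran from 3 to 6 with 1 array left out. It was 6 without WT 3, 5 without OC1-KO 1 and 7 in the embryos numbered 1 and 2 alone. With a filter on the mean over all 6 arrays it was 2, and 15 of the 16 member probe sets were kept. Without WT 3, Lztfl1 1428974_s_at, 2010315B03Rik and Fyco1 1453424_at joined. For the other neighbours on chromosome 9 the count lower without overlap, 0, ran from 0 to 1 with 1 array left out, and was 1 in embryos 1 and 2 alone, the cause not tested. Fewer arrays make overlap less likely by construction.

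The count of probe sets with an effect of embryo number, 1111, was 0 with no filter on signal and 4106 with an intensity trend. With 1 array left out it ran from 0 (without OC1-KO 1) to 1544 (without WT 1), and was 3 to 9 without any one of the other 4; the cause was not tested. Among members other than Lztfl1 1460200_s_at, an intensity trend brought Lars2 1435682_at, Zdhhc3 1423646_at, 2010315B03Rik and both Fyco1 sets under 0.05, and leaving out WT 1 did so for Zdhhc3 1423647_a_at, Lztfl1 1428974_s_at and 1435514_at, Fyco1 1453424_at and 2010315B03Rik.

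Some small differences changed sign. C1d was -0.26 to 0.0088, Lars -0.014 to 0.21, Pi4k2a -0.25 to 0.024, Zdhhc2 -0.44 to 0.077 and Golga7 -0.071 to 0.13 with 1 array left out. In embryos 1 and 2 alone Zdhhc2 was 0.0068 and Golga7 -0.044, and with quantile normalization Golga7 was -0.0041. With 1 array left out the differences of the 3 Zdhhc3 sets, Tmem42, Sacm1l, Limd1 1422731_at, Lztfl1 1417170_at and 1460200_s_at and Fyco1 1427177_at also changed sign. The lower means of Lars2 1435682_at, Lztfl1 1428974_s_at and 1435514_at, 2010315B03Rik, Fyco1 1453424_at and Limd1 1422730_at kept their sign in all 10 of their alternatives. Signals under the filter, such as the OC1-KO values of Lztfl1 1435514_at, are dim, and the size of such differences rests on them.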
